A study of Homo sapiens with 20 samples.

Results

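HEK293E cells, a human line of embryonic kidney origin, had their DROSHA gene knocked out and were given back either full-length DROSHA or the shorter form DROSHA-p140. These 6 small RNA libraries, 3 with each form, are described here out of 20 libraries in the series, and were taken by their sample titles. Of 2588 mature miRNA names in the files, 416 had enough reads in them to be tested. All 6 come from knockout cells, so the added protein is the labelled source of DROSHA in both groups. The remaining libraries come from HCT116, a colon cancer line. They comprise 3 knockout libraries with each DROSHA form, 1 untreated wild-type library, 1 knockout library given GFP, and libraries of a serum experiment that are not used here. An unrescued or wild-type HEK293E library was not analysed here. The labels name no clone, promoter, dose or culture for the replicates. The p-values here thus rest on the spread among the libraries as deposited, and that spread may be technical.

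DROSHA is the nuclear enzyme that, with DGCR8, cuts the hairpin of a microRNA (miRNA) out of its primary transcript. DICER then releases a duplex whose strands, named 5p and 3p after the hairpin arm they come from, can enter an Argonaute protein. Bases 2 to 8 of the mature strand, the seed, pair with target messenger RNAs. Many hairpins lie in introns of host genes and are cut before or during splicing, and the series title asks what a proline-rich disordered domain of DROSHA does for these. The p140 form lacks that N-terminal domain. A few miRNAs need no DROSHA cut. Mirtrons are short introns released by splicing, and the capped or terminal precursors of miR-320a and miR-484 start at a transcription start site.

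Depth ranged from 224262 to 335803 miRNA reads per full-length library and from 135085 to 246008 per p140 library. Replicates within a group differed by more than counting noise, with a chi-square per degree of freedom of 5.85 to 15.5. No accepted single miRNA marks HEK293E cells, so the label was checked against miRNAs of other cell types. A list of colon epithelium miRNAs took 0.234% to 0.345% of the reads of the HEK293E libraries and 8.09% in wild-type HCT116. The 25 names of a list of pluripotent and placental miRNAs took at most 0.000859%, and 22 of them were at 0 in all 6 libraries. Of 5 muscle, liver, neural and endothelial miRNAs tested 0 passed the test, and their list took 0.405% to 0.569% of reads. Of the 11 blood cell names only miR-486-5p had enough reads to be tested, and it fell by 1.79 ± 0.34 on the log2 scale. The share of that list was 0.0526% to 0.0992% in the full-length and 0.0148% to 0.0292% in the p140 libraries, and the part of this in other results was not tested. The counts hold no messenger RNA, so the DROSHA knockout and the added form could not be checked directly.

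The miRNAs on which the results turn are shown first, as mature sequences from RefSeq (GRCh38.p14), 5′ to 3′, with the seed in capitals. The first set fell with p140 and is shown for the size or the level at which it did so. miR-196a-5p and miR-196b-5p have the same seed.
miR-548b-3p: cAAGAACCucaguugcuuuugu
miR-1305: uUUUCAACucuaaugggagaga
miR-576-5p: aUUCUAAUuucuccacgucuuu
miR-629-5p: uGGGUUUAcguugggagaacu
miR-374a-3p: cUUAUCAGauuguauuguaauu
miR-374b-5p: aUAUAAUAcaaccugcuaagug
miR-421: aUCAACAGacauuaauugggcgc
miR-128-3p: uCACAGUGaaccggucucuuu
miR-345-5p: gCUGACUCcuaguccagggcuc
miR-196a-5p: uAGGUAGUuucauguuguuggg
miR-196b-5p: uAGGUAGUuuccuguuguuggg
miR-218-5p: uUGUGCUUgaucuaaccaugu
The second set rose with p140. The 3 relatives of miR-320a at its foot share a seed and nearly all other bases, so reads could be split among them by the authors' counting.
miR-941: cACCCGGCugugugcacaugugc
miR-2110: uUGGGGAAacggccgcugagug
miR-760: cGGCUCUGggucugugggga
miR-4521: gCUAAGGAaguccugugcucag
miR-877-5p: gUAGAGGAgauggcgcaggg
miR-484: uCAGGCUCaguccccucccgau
miR-320b: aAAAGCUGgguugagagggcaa
miR-320c: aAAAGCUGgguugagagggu
miR-320d: aAAAGCUGgguugagagga
The third set holds miRNAs of shared transcripts or shared seeds of which only the first in each pair passed the test.
miR-19a-3p: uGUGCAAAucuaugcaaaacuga
miR-19b-3p: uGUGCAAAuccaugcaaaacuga
miR-454-3p: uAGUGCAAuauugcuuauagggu
miR-301a-3p: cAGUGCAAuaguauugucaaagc
miR-99b-5p: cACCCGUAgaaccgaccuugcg
miR-125a-5p: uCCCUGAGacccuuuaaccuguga

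With p140 in place of full-length DROSHA, 88 miRNAs fell and 22 rose out of 416 (adjusted p under 0.05 in edgeR's quasi-likelihood test, Benjamini-Hochberg). These are 26.4% of the miRNAs tested, 21.2% for falls and 5.29% for rises, and 64 falls and 11 rises were over 2-fold. The median log2 fold change of all 416 was -0.04, with quartiles at -0.70 and 0.35. In bulk RNA, fewer cells that make a miRNA and less of it per cell cannot be told apart. The 2 groups of libraries did not overlap for 42.3% of the miRNAs, with p140 lower for 28.6% and higher for 13.7%. All 88 falls and all 22 rises were among them.

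Falls made up 80.0% of these calls. Same-numbered libraries deviated together, and with the replicate number as a block 113 miRNAs fell (27.2%) and 70 rose (16.8%), so that 61.7% of calls were falls. The block kept all 88 falls and all 22 rises. When each library was instead scaled to the reads of the miRNAs made without DROSHA, the median of all miRNAs shifted by -0.72, 211 miRNAs fell and 4 rose, and 98.1% of calls were falls. That scale sums the reads of a list and rests largely on miR-320a. The share of the list rose by 6.43 percentage points with p140, and by 1.31 without miR-320a. A scale without miR-320a was not tried. With the main scaling, the count of rises was 10 without the p140 library numbered 2 and 36 without the full-length library numbered 2.

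**Figure D1:**
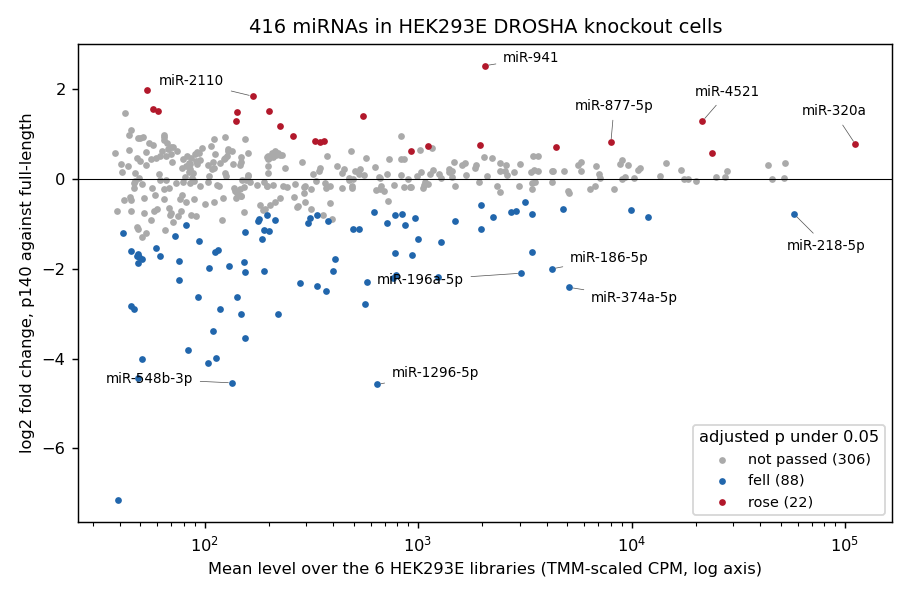
Each point is 1 of 416 miRNAs, with its mean level over the 6 HEK293E libraries in TMM-scaled CPM (x, log axis) and its log2 fold change with p140 against full-length DROSHA (y). The 88 falls in blue reach log2 fold changes under -4, the 22 rises in red stay under 3, and the lowest point is miR-579-3p, which had 0 reads with p140, so that its fitted value is no measure of size.

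The deepest falls belonged to intronic miRNAs of unrelated host genes. miR-1296-5p, in an intron of JMJD1C (chr10:63373012-63373033, hg38), stood at 921, 1482 and 1320 CPM (read counts scaled to library depth, with TMM factors) in the full-length libraries. It stood at 30.4, 40.7 and 74.1 CPM in the p140 libraries, so every p140 library was over 10 times lower than every full-length library. It fell by 4.58 ± 0.34 on the log2 scale (adjusted p = 1.25e-05). miR-548b-3p, in FAM184A, had 304, 209 and 270 CPM with full-length DROSHA and 0, 0 and 24.7 CPM with p140, and fell by 4.54 ± 0.61. That size rests on the p140 library numbered 3, the only p140 library with reads of it, and without that library the fitted value was -8.86, which against a group at 0 is no measure of size. Among miRNAs with a mean of 100 CPM or more, 19 of the 20 that fell most were intronic, and each of the 20 passed the test under all 13 alternative settings.

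Others of the 20 lay in introns with a wide range of lengths. miR-1305 in TENM3 (log2 fold change -4.11), miR-576-5p in SEC24B (-3.99, and -4.65 without the p140 library numbered 2), miR-3176 in CAPN15 (-3.55) and miR-625-3p in FUT8 (-3.01) fell. So did miR-491-5p in FOCAD (-2.90), miR-577 in UGT8 (-2.63), miR-1301-3p in DNMT3A (-2.51), miR-589-5p in FBXL18 (-2.39) and miR-1180-3p in B9D1 (-2.30). Both arms of the TLE3 hairpin miR-629 fell, with -2.78 for 5p and -3.39 for 3p. miR-579-3p in ZFR was under the level set for naming and was chosen after its values were seen. It had 63 reads over the full-length libraries and 0 over the p140 libraries, which makes it at least 15.0-fold lower against a floor of 3 reads over the group (counting error only).

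Several falls came from abundant miRNAs. miR-186-5p, in an intron of ZRANB2 (chr1:71067681-71067702), held 6360, 7080 and 6912 CPM with full-length DROSHA and 1591, 1499 and 1973 CPM with p140, a fall of 2.00 ± 0.16. miR-128-3p, a miRNA best known from brain with a copy in R3HDM1, went from 2024 ± 194 to 444 ± 101 CPM (SD, n = 3) and fell by 2.18 ± 0.21. miR-218-5p, whose copies lie in the axon guidance genes SLIT2 and SLIT3, was second in mean level over the 6 libraries after miR-320a. It stood at 76720, 77410 and 65680 CPM with full-length DROSHA and at 43650, 39260 and 44390 CPM with p140, without overlap, and fell by 0.79 ± 0.12 (adjusted p = 0.000873). Its partner miR-218-1-3p fell by 1.12 ± 0.30, and this partner did not pass without the p140 library numbered 2 or without that numbered 3.

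The only intergenic miRNA among the 20 largest falls was miR-345-5p (chr14:100307876-100307897). It had 1170, 1199 and 1410 CPM with full-length DROSHA and 297, 285 and 243 CPM with p140, and fell by 2.20 ± 0.20 (adjusted p = 2.99e-05). The miRNAs of the HOX gene clusters were split. miR-196a-5p went from 4939 ± 531 to 1147 ± 336 CPM and fell by 2.10 ± 0.22, and miR-196b-5p, at HOXA9, went from 15360 ± 599 to 8519 ± 1415 CPM and fell by 0.85 ± 0.15. miR-196b-3p fell too, so 3 of 8 tested members fell and 0 rose, beside 21.2% and 5.29% of all miRNAs tested. miR-10a-5p, in the HOXB cluster, had 51760 CPM as the mean of the full-length and 52220 CPM as the mean of the p140 libraries, with a log2 fold change of 0.01 ± 0.16.

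**Figure D2:**
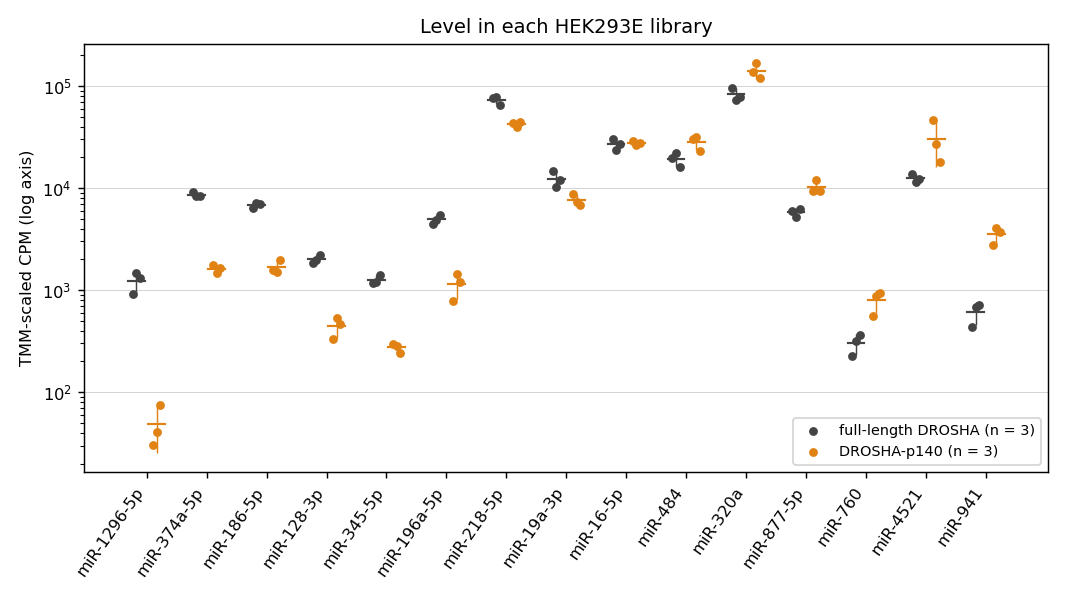
Points are the TMM-scaled CPM (log axis) of 15 miRNAs in each library, grey for full-length DROSHA and orange for p140, with a bar at the mean and a line of 1 SD (n = 3). Apart from miR-16-5p the groups do not overlap, and miR-16-5p, drawn as an abundant miRNA that did not pass, overlaps.

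All 7 tested miRNAs of the FTX transcript region on chromosome X fell, beside 21.2% of all miRNAs tested, with a median log2 fold change of -1.83. They include both arms of miR-374a and of miR-374b, so they are not 7 independent values. FTX is a long noncoding RNA gene of the X-inactivation centre. miR-374a-5p had 9082, 8357 and 8400 CPM with full-length DROSHA and 1743, 1458 and 1643 CPM with p140, and fell by 2.42 ± 0.14 (adjusted p = 3.21e-06). miR-374b-5p went from 5192 ± 157 to 1668 ± 88.3 CPM, and miR-421 from 1441 ± 114 to 443 ± 80.8 CPM. miR-374c-5p is annotated on the other strand of the miR-374b hairpin and is near-identical to miR-374b-5p in sequence, so the assignment of its reads is uncertain. The list took 1.61%, 1.65% and 1.65% of reads in the full-length libraries and 0.372%, 0.350% and 0.400% in the p140 libraries. With DESeq2 6 of the 7 fell, as without the p140 library numbered 3.

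The arms of a hairpin mostly changed alike. In 64 hairpins both arms had a mean of at least 100 CPM, and their log2 fold changes had the same sign in 53 and lay within 1 of each other in all 64. The median difference between arms was 0.20. In 16 hairpins at least 1 arm fell, and in 15 of them both did. The exception was miR-339, of which the 5p arm fell by 0.59 ± 0.19 while the 3p arm had a log2 fold change of -0.41 ± 0.25. In 0 of the 64 hairpins did 1 arm fall and the other rise. The widest gaps were those of miR-31 (0.46 for 5p, -0.18 for 3p), which is made from a noncoding host, and miR-671 (0.69 and 0.06). Those of miR-629 and miR-374a were 0.61 and 0.59, with both arms fallen. For miR-532 (0.14 and -0.43) and miR-301a (-0.63 and -0.09) neither arm passed. The arms share their hairpin, so these are not independent values, and the differences were not tested.

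**Figure D3:**
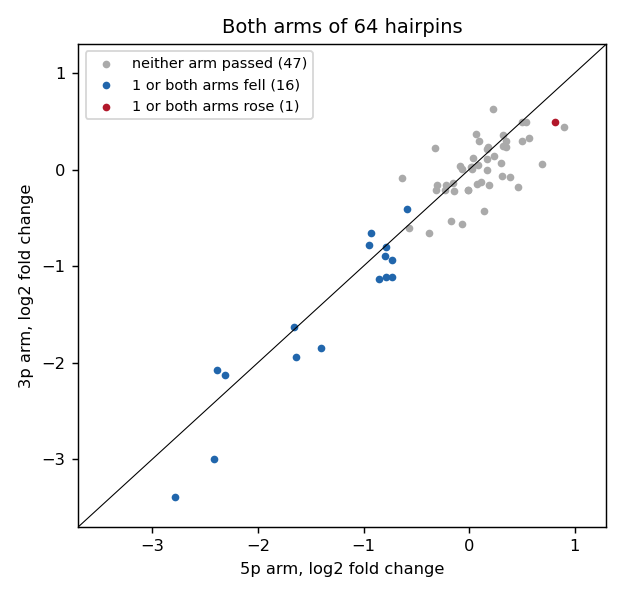
Each point is a hairpin with both arms at a mean of at least 100 CPM, with the log2 fold change of its 5p arm (x) and of its 3p arm (y). The 64 points lie within 1 of the line of equal change, and the 16 hairpins with a fallen arm, in blue, lie in the lower left.

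Falls were mostly intronic. Of 234 intronic miRNAs tested 67 fell and 2 rose, with a median log2 fold change of -0.16. Of 47 exonic miRNAs 5 fell and 5 rose (median 0.22), and of 61 intergenic ones 8 fell and 8 rose (median 0.10). The share of fallen miRNAs was thus 28.6% for intronic, 10.6% for exonic and 13.1% for intergenic ones, beside 21.2% of all tested. The remaining 74 miRNAs were exonic in some transcripts and intronic in others (48, of which 6 fell and 2 rose) or had copies in different classes (26, of which 2 fell and 5 rose). The difference in median between intronic miRNAs and the exonic and intergenic ones together was -0.27, and lay between -0.36 and -0.27 under all the alternatives tried. A change of scale moves all miRNAs nearly alike, so the alternatives that change the scale could hardly alter this difference. As reads, intronic miRNAs took 52.7% ± 1.06 (SD, n = 3) of full-length libraries and 46.6% ± 2.07 of p140 libraries, while intergenic ones, which include miR-320a, took 15.6% ± 0.74 and 22.8% ± 2.34.

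Intronic falls were found at every level. Among intronic miRNAs 13 of 60 fell at a mean under 100 CPM, 38 of 117 at 100 to 1000 CPM and 16 of 57 above. Of 43 tested members of a list of conserved miRNAs in host-gene introns, 16 fell and 0 rose, with a median of -0.45. Falls and rises were 28.6% and 0.855% of intronic miRNAs, and 21.2% and 5.29% of all tested. Members that did not pass include miR-26a-5p in CTDSP2 (0.25 ± 0.13), miR-103a-3p in PANK2 (0.21 ± 0.17) and miR-107 in PANK1 (0.17 ± 0.19), while miR-151a-5p and miR-151a-3p in PTK2 fell by 0.73 and 0.94.

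The place within the intron went with the change, and so did the length of the intron, to which it is tied. The bins used here were chosen after the values were seen, so the counts are a description. Of 51 intronic miRNAs whose hairpin lay within 200 bases of an exon of the host, 0 fell and 1 rose, with a median log2 fold change of 0.42. From 200 to 1000 bases 16 of 62 fell (25.8%, median -0.27), from 1000 to 3000 bases 16 of 43 (37.2%, median -0.19), and at 3000 bases or more 35 of 78 (44.9%, median -0.67). Many near-exon hairpins fill their intron and touch the exon, as mirtrons do. Among the 21 that lay at least 1 base from an exon, 0 fell as well and the median was 0.00. These 21 come from only 14 hairpins, and with the replicate block 3 of them fell. Those 21 include miR-15b-5p in SMC4, whose group means were 10180 CPM with full-length DROSHA and 10360 CPM with p140. They also include miR-25-3p in MCM7 (24490 and 25110 CPM) and miR-221-3p in MIR222HG (39060 and 48010 CPM). The changes of these 3 did not pass.

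With the replicate block 3 of the 51 near-exon miRNAs fell, namely miR-641, miR-210-3p and miR-191-5p, and 16 rose. Up to 2 fell when 1 library was left out. On the scale of the DROSHA-independent miRNAs 11 of the 51 fell (21.6%), against 61 of 78 (78.2%) at 3000 bases or more. Fallen intronic miRNAs lay in introns of a median length of 15500 bases, at a median of 3210 bases from an exon, whereas those that did not pass lay in introns of 4870 bases at 630 bases from an exon. By intron length 1 of 43 fell under 1000 bases and 16 of 62 from 1000 to 5000. From 5000 to 20000 bases it was 22 of 51, and above that 28 of 78. Few near-exon miRNAs lie in long introns. In introns of 5000 bases or more, 0 of 5 fell within 200 bases of an exon, and these 5 come from 3 hairpins. From 200 to 1000 bases 2 of 13 fell there (15.4%), from 1000 to 3000 bases 13 of 33 (39.4%), and beyond that 35 of 78 (44.9%). Distance was not tested apart from length.

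Of intronic miRNAs with no other hairpin within 10 kb, 55 of 153 fell (35.9%), and of those with a neighbour 12 of 81 (14.8%). Of all intronic miRNAs 28.6% fell. The contrast was not found at every distance from an exon. From 200 to 1000 bases 16 of 46 lone miRNAs fell and 0 of 16 with neighbours. From 1000 to 3000 bases it was 8 of 22 (36.4%) and 8 of 21 (38.1%). At 3000 bases or more from an exon the counts were 31 of 54 (57.4%) for lone hairpins and 4 of 24 (16.7%) for those with neighbours. The most abundant miRNAs at this distance were exceptions. miR-30a-5p and miR-30c-5p in LINC00472, miR-181a-5p and miR-181b-5p, miR-10b-5p in HOXD3 and miR-342-3p in EVL had log2 fold changes between 0.00 and 0.32, and their changes did not pass. miR-941, in a DNAJC5 intron 8814 bases from an exon, rose.

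**Figure D4:**
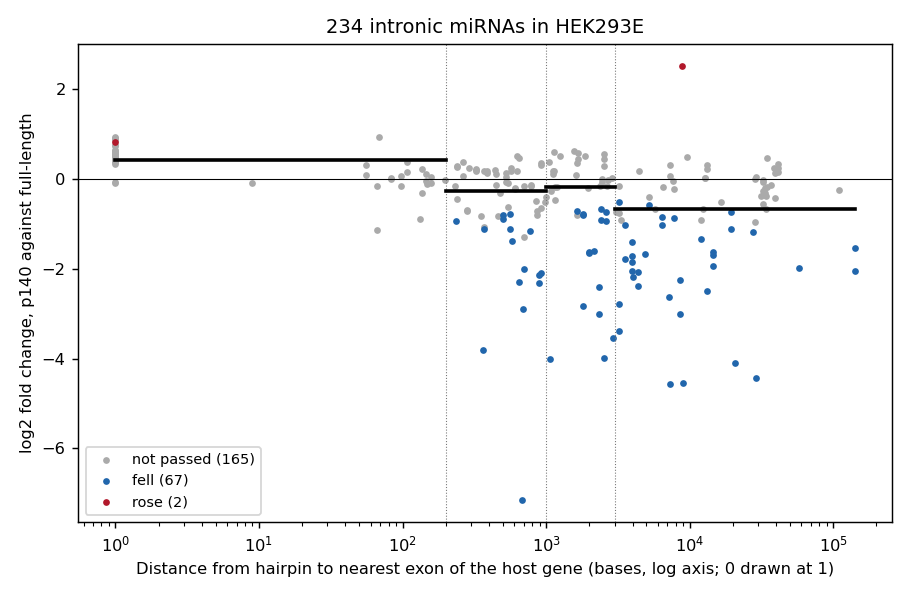
Each point is 1 of 234 intronic miRNAs, with the distance of its hairpin from the nearest host exon in bases (x, log axis, 0 drawn at 1) and its log2 fold change (y). Black bars are medians of the bins at 200, 1000 and 3000 bases, and no blue point, a fall, lies left of 200 bases.

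Members of 1 primary transcript did not always move together. These pairs were picked after their values were seen and have no test. miR-99b-5p and miR-125a-5p start 650 bases apart in an SPACA6 intron, and their ratio was 1.19, 1.56 and 1.05 with full-length DROSHA and 0.58, 0.665 and 0.7 with p140. In the miR-17 cluster of MIR17HG, 1 of 11 tested members of its list fell, beside 21.2% of all miRNAs tested. That was miR-19a-3p, by 0.70 ± 0.17, and its ratio to miR-17-5p went from 0.701 ± 0.035 to 0.433 ± 0.004. miR-19a-3p did not pass without the p140 library numbered 3 (adjusted p = 0.0519) or in a joint fit with HCT116 (adjusted p = 0.0575), and miR-99b-5p did not pass with RLE size factors (adjusted p = 0.0591) or without the full-length library numbered 2 or any 1 of the p140 libraries.

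Other neighbours parted likewise. In SKA2, miR-454-3p fell by 0.84 ± 0.18, while miR-301a-3p, which shares its seed and lies 13362 bases away in the same intron, had a log2 fold change of -0.09 ± 0.16. The ratio of miR-454-3p to miR-301a-3p went from 0.819 ± 0.110 to 0.487 ± 0.110. The other arm of the miR-301a hairpin, miR-301a-5p, had a log2 fold change of -0.63 ± 0.23, which did not pass but is nearer to that of miR-454-3p. miR-450b-5p over miR-424-5p, from the miR-503 host region on chromosome X, went from 0.211 ± 0.022 to 0.0724 ± 0.0321. miR-502-3p over miR-532-5p in CLCN5 went from 0.515 ± 0.029 to 0.204 ± 0.042. None of these ratios overlapped between the groups, whereas that of miR-99a-5p to let-7c-5p did, at 0.893, 1.69 and 0.953 against 0.922, 0.684 and 0.753. The arm chosen matters for the size of such gaps. miR-532-3p had a log2 fold change of -0.43 ± 0.32, against 0.14 ± 0.20 for miR-532-5p. In the other direction, miR-424-3p had 0.63 ± 0.33 against 0.22 ± 0.23 for miR-424-5p. None of these arms passed.

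Summed levels of miRNAs with a shared seed are a description here. miR-32-5p fell by 1.40 ± 0.33, but the 4 miRNAs with its seed, led by miR-92a-3p and miR-25-3p, summed to 74440 ± 6988 CPM with full-length DROSHA and 74430 ± 11570 CPM with p140. The 5 tested miRNAs with the miR-17 seed, of which 0 fell, summed to 76650 ± 13670 and 80290 ± 9977 CPM. By contrast, the sum of miR-130b-3p, miR-301a-3p, miR-301b-3p and miR-454-3p went from 7688 ± 907 to 5680 ± 185 CPM, and that of miR-99a-5p, miR-99b-5p and miR-100-5p from 8126 ± 2225 to 4884 ± 475 CPM, both without overlap. miR-148b-3p and miR-152-3p fell, and with miR-148a-3p they summed to 13150 ± 59 and 12210 ± 441 CPM, again without overlap. Sums parted upward as well. The 4 tested miRNAs with the miR-181 seed, of which 0 fell and 0 rose, summed to 14250 ± 909 and 16870 ± 857 CPM without overlap. Those of miR-320b, miR-320c and miR-320d were 5625 ± 954 and 9303 ± 1211 CPM, also without overlap. Among single miRNAs the groups did not overlap for 42.3%. Of 10 tested arms of the miR-130, miR-301 and miR-454 families 4 fell, beside 21.2% of all miRNAs tested. The miR-148b-3p call was lost with DESeq2 (adjusted p = 0.0862), with RLE size factors, without the count filter and in 4 of the 6 fits that left out 1 library.

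The largest rise with a mean of at least 100 CPM was that of miR-941, listed in the files at 5 positions. It stood at 436, 688 and 708 CPM with full-length DROSHA and 2747, 4056 and 3719 CPM with p140, without overlap, and rose by 2.52 ± 0.23 (adjusted p = 2.99e-05). miR-4521, an intergenic miRNA on chromosome 17, had 13680, 11560 and 12270 CPM with full-length DROSHA and 46450, 26900 and 18020 CPM with p140. Its rise of 1.28 ± 0.28 passed although the p140 libraries spread over more than a 2-fold range. miR-2110 in an exon of CCDC186 rose by 1.84 ± 0.37 from 72.6 ± 25.7 CPM. miR-941, miR-2110 and miR-4521 were the 3 of the 19 named rises that passed under every alternative setting, the scale of the DROSHA-independent miRNAs included. miR-320a, miR-877-5p, miR-484 and miR-3615 are among the miRNAs whose summed reads set that scale, so it cannot test their rises.

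Most rises were smaller, and many lost their call when 1 library was left out. miR-760 had 227, 319 and 366 CPM with full-length DROSHA and 563, 883 and 943 CPM with p140 and rose by 1.39 ± 0.26. It passed whichever library was left out. miR-4517, miR-4787-3p, miR-3143 and miR-3144-3p rose by 1.17 to 1.52. Of these, miR-4517 and miR-3144-3p also passed whichever library was left out. Between 0.82 and 0.95 lay the rises of miR-636, miR-6724-5p, miR-1292-5p and miR-1254. Of the 19 rises with a mean of at least 100 CPM, 8 passed without the p140 library numbered 2, 12 without the full-length library numbered 3, and 8 in the joint fit with HCT116.

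The single wild-type and GFP libraries of HCT116, which have no replicates, give a level without DROSHA for these rises. Some were abundant in the knockout given GFP. miR-320a had 23416 of its 38288 reads and 10185 of the 856658 wild-type reads, miR-877-5p 1174 against 150, miR-4521 1158 against 642, and miR-636 54 against 4. Others were near 0 without DROSHA. miR-941 had 1 read there and 67 in wild type, miR-2110 1 and 85, miR-760 0 and 11, and miR-4787-3p 0 and 26, although at the depth of the knockout library a wild-type level this low would give few reads.

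Of the DROSHA-independent list, 4 of 12 tested members rose and 0 fell, beside 5.29% and 21.2% of all miRNAs tested, with a median log2 fold change of 0.58. The list was chosen with earlier results of these samples known, so it is not independent evidence of its direction. miR-320a, at 96500, 73320 and 78520 CPM with full-length DROSHA and 136500, 166200 and 120300 CPM with p140, rose by 0.77 ± 0.15 (adjusted p = 0.0041). The mirtron miR-877-5p went from 5815 ± 512 to 10190 ± 1482 CPM and rose by 0.81 ± 0.15. miR-484 and miR-3615, exonic in NDE1 and SLC9A3R1, rose by 0.58 ± 0.17 and 0.62 ± 0.20. With the replicate block 8 rose, 2 without the p140 library numbered 2 or the full-length library numbered 3, and 0 in the joint fit.

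The list took 12.3%, 11.1% and 10.6% of reads with full-length DROSHA and 17.7%, 20.1% and 15.6% with p140. Every p140 library was above every full-length library, although with 3 against 3 no exact permutation test can go under p = 0.1. The difference of 6.43 percentage points was 1.31 without miR-320a. The same list took 1.29% of reads in wild-type HCT116 and 71.7% in the HCT116 knockout given GFP. miR-320b, miR-320c and miR-320d also rose, by 0.72, 0.75 and 0.72, and 1 further listed relative, miR-320e, had a log2 fold change of 0.63 that did not pass.

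Several families had no member that passed. Of 12 tested let-7 miRNAs 0 fell and 0 rose, beside 21.2% and 5.29% of all tested, with log2 fold changes from -0.67 to 0.51. let-7a-5p, the most abundant, had 13460, 10740 and 14340 CPM with full-length DROSHA and 14300, 18330 and 16320 CPM with p140, and the groups overlapped. With the block, 4 let-7 miRNAs rose and 2 fell. None passed among 6 miRNAs of the miR-106b cluster, 12 of the miR-15 and miR-16 family, 6 of the miR-23, miR-27 and miR-24 clusters, 6 of miR-29, 10 of miR-30, 7 of miR-181, 4 of the miR-183 cluster and 5 linked to p53, and their medians lay between -0.08 and 0.16. With the block, miR-424-3p (0.64), miR-181a-5p (0.33) and miR-34a-5p (0.31) rose and miR-30c-2-3p (-0.90) fell, 1 in each of 4 of these lists. miR-222-3p had a log2 fold change of 0.36 ± 0.13 (adjusted p = 0.0705) that passed with the block, as did those of miR-221-3p and miR-222-5p. On the scale of the DROSHA-independent miRNAs the medians of these families were all negative, from -0.79 to -0.41.

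The same exchange in knockout HCT116 cells was set beside these values. In HCT116 139 of 446 miRNAs fell (31.2%) and 127 rose (28.5%). Of the 73 HEK293E falls that were tested in both lines, 68 fell in HCT116, which is 93.2% of these 73 and 56.7% of the HCT116 falls tested in both lines. Of 19 HEK293E rises tested in both lines 17 rose in HCT116, which is 89.5% of these 19 and 19.3% of the HCT116 rises tested in both. In 0 cases did a miRNA fall in 1 line and rise in the other. Over 350 miRNAs the log2 fold changes had Pearson's r = 0.846, a description across miRNAs, which are not independent replicates. All 12 members of the DROSHA-independent list rose in HCT116, with a median of 1.84 against 0.58 in HEK293E. Each line was scaled on its own for these values. The test of a difference between the lines, given next, passed for only 1 of the 12, miR-484.

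Whether the p140 effect differed from that in HCT116 was tested in 1 model of all 12 libraries, by the term for line and form. It passed for 17 of 515 miRNAs (3.3%), and 105 had an unadjusted p under 0.05. In 6 of the 17 the log2 fold change was lower in HEK293E, and in 11 it was higher. Of these 11, 5 fell in HEK293E and the changes of the other 6 did not pass there. Some fell in both lines, with log2 fold changes in HEK293E and HCT116 of -1.69 and -4.16 for miR-421, -0.84 and -2.87 for miR-454-3p, -1.64 and -3.62 for miR-374b-5p, and -0.70 and -2.45 for miR-19a-3p. Others fell in HCT116 and did not pass in HEK293E, with -0.23 and -1.56 for miR-425-5p, 0.03 and -1.36 for miR-15b-5p, and 0.38 and -1.07 for miR-98-5p.

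In the other direction, miR-1260b had a log2 fold change of 0.42 in HEK293E (7683 ± 1041 to 10270 ± 837 CPM, adjusted p = 0.0582) and rose by 2.02 in HCT116. miR-4286 had 0.35 and 2.11, and miR-484 rose by 0.58 and 1.70. Without the HCT116 p140 library numbered 3 the interaction passed for 57 miRNAs with a lower and 28 with a higher value in HEK293E, and for 48 and 29 without both HCT116 libraries numbered 3. With the replicate block within each line it passed for 62 and 40. On the scale of the DROSHA-independent miRNAs, an alternative chosen after the data were seen, it passed for 0 and 0. There all 11 higher terms were larger in size, such as 3.24 in place of 2.39 for miR-421 (adjusted p = 0.259) and 2.13 in place of 1.28 for miR-425-5p (adjusted p = 0.329). The 6 lower terms were smaller in size, such as -0.60 in place of -1.67 for miR-1260b. miR-484 is on the list that sets this scale, so its term there, -0.07 in place of -1.17, tests nothing. The term of miR-421 was 3.43 without the HCT116 p140 library numbered 3.

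**Figure D5:**
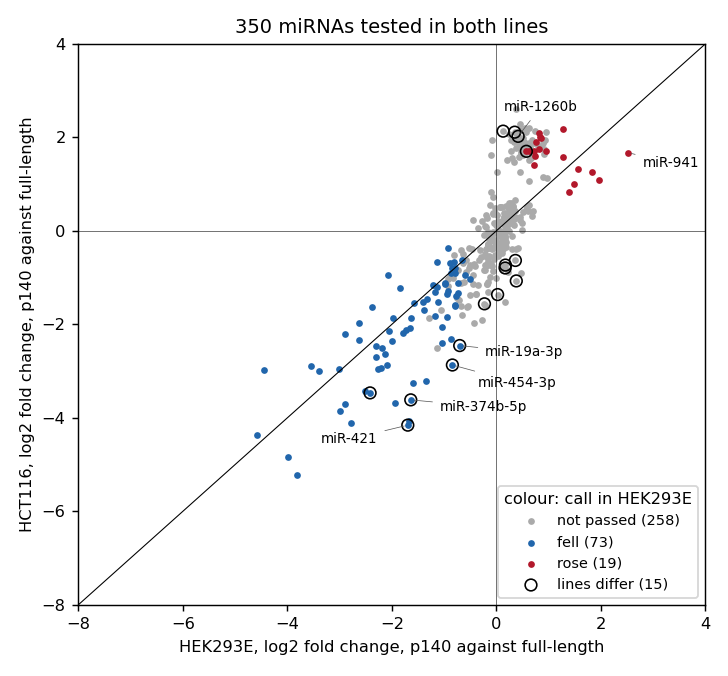
Each point is 1 of 350 miRNAs tested in both lines, with its log2 fold change in HEK293E (x) and in HCT116 (y), coloured by the call in HEK293E, and the line marks equal change. Blue falls lie in the lower left and mostly under the line, red rises in the upper right, and rings mark the 15 miRNAs shown whose interaction of line and form passed.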

How the data were processed

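Small RNA was size-selected, ligated to adaptors with random bases and read on a MiSeq, per the labels' protocols. The submitters' processing notes name cutadapt, STAR, bedtools and hg38, while versions and the treatment of multimapping reads are not stated there. What the authors deposited are raw read counts for each mature miRNA, as whole numbers. Each file listed 2813 values for 2588 names, and of several copies the one with the highest total was kept. No use of the random bases as molecular identifiers is stated, so floors speak of counting error alone.

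The test was edgeR 4.0.16 in R 4.3.3 (TMM scaling, filterByExpr with a minimum count of 10, quasi-likelihood F test, two-sided, Benjamini-Hochberg adjustment, threshold 0.05). HEK293E was fitted alone, and the interaction over 12 libraries. Levels are mean ± SD (n = 3) and log2 fold changes ± standard error. DESeq2 1.42.0, other scalings, no filter, the first listed copy, a joint fit, the replicate block and leaving out each library were alternatives. Deviations of same-numbered HEK293E libraries from their group means correlated at 0.565, 0.346 and 0.373 over 416 miRNAs. The numbers were therefore taken to pair the samples, from the data and not from a label, in the fits with the replicate block. The main fit used no block, so calls and standard errors ignore this pairing unless the block is named. The fits were tested on simulated data with as many rises as falls and no pairing of libraries. That simulation therefore cannot judge the choice of scale or of the replicate block.

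Hairpins were placed on GENCODE 29 (GRCh38), where a hairpin inside a same-strand gene that touches no exon is intronic. RefSeq (GRCh38.p14) gave mature sequences for 366 of the 416 miRNAs tested. Named miRNAs are the 20 largest falls and up to 20 rises whose mean reached 100 CPM and whose groups do not overlap, the 12 most abundant, list members of at least 1000 CPM, up to 8 interaction terms per direction and the 6 hairpins whose arms differ most. Neighbours, seed relatives, miRNAs near an exon and other miRNAs outside this rule were chosen after their values were seen. The members and lists were chosen with earlier results of these data known.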

Additional observations from a re-analysis of the deposited data

Results flagged for a closer look

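The p140 effect differed between the lines, by the interaction test over 12 libraries, for 17 miRNAs, given here as the HEK293E minus the HCT116 log2 fold change. Those that were lower in HEK293E were miR-4722-5p (-6.35), miR-1250-5p (-5.90), miR-3188 (-2.05), miR-4286 (-1.79), miR-1260b (-1.67) and miR-484 (-1.17). The first 3 had a mean under 100 CPM. miR-4722-5p had 0 reads in all 3 HEK293E p140 libraries and a mean of 8.94 CPM with full-length DROSHA, so its fitted value is neither a bound nor a measure of size. Those that were higher in HEK293E were miR-421 (2.39), miR-454-3p (1.96), miR-374b-5p (1.90), miR-19a-3p (1.68), miR-98-5p (1.38), miR-15b-5p (1.31), miR-425-5p (1.28), miR-374a-5p (0.99), let-7f-5p (0.94), miR-30e-5p (0.91) and miR-181b-5p (0.85). On the joint scale of the 12 libraries, miR-1250-5p, in an intron of AATK, went from 68.0 ± 21.5 to 4.20 ± 1.24 CPM in HEK293E and from 1.74 ± 1.76 to 7.42 ± 2.53 CPM in HCT116 (SD, n = 3). Groups of 3 libraries were not searched for single outlying libraries.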

How the results depend on the processing

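The 20 largest falls kept their direction and passed under all 13 alternatives, and the number of falls lay between 67 and 93 when 1 library was left out. Scaling to the DROSHA-independent miRNAs gave 211 falls and 4 rises, and rises numbered 14 in the joint fit of 12 libraries, 70 with the replicate block and 10 to 36 with 1 library left out. On that scale, log2 fold changes with a changed sign were -0.0086 for miR-320b, -0.11 for miR-3615 and -0.16 for miR-484, which rose before. Others had no call before and passed as lower there, miR-10a-5p (-0.71), miR-93-5p (-0.54), miR-16-5p (-0.67), miR-25-3p (-0.69), let-7e-5p (-0.64), miR-106b-5p (-0.62), miR-15b-5p (-0.69), miR-27a-3p (-0.67), miR-30c-5p (-0.71), miR-30a-5p (-0.67), miR-30b-5p (-0.59), miR-30d-5p (-0.53), miR-10a-3p (-0.69), miR-342-3p (-0.66) and miR-148a-3p (-0.67). The scale takes the summed output of the DROSHA-independent miRNAs as unchanged, and whether it was is not measured. That sum rests largely on miR-320a. miR-484 and miR-3615 are part of it, so the scale cannot test their change. Interaction terms numbered 6 lower and 11 higher, 10 lower with DESeq2, 6 higher with RLE size factors, 62 and 40 with the replicate block, 48 and 29 without both HCT116 libraries numbered 3, and 0 and 0 on the DROSHA-independent scale, where all 11 higher terms were larger in size. With 1 library left out they numbered 2 to 57 lower and 3 to 28 higher. The rise in the DROSHA-independent share was 6.43 points, 1.31 without miR-320a and 5.27 to 7.54 with 1 library left out. The class difference was -0.36 to -0.27 over its alternatives, -0.30 with the block, and a change of scale could hardly alter it. For all of these the cause was not tested. Depth limits miRNAs with few reads, such as those under 100 CPM. The labels name spike-in RNAs mixed into the total RNA, which were not analysed here, so total miRNA output has no absolute scale and 88 or 211 falls depends on the scale chosen.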
